A study of Homo sapiens with 12 samples.

Results

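Chemokines are small secreted proteins that draw leukocytes along a concentration gradient by binding G-protein-coupled receptors. The CXC chemokines CXCL1, CXCL2, CXCL3, CXCL5 and CXCL8 carry a Glu-Leu-Arg motif before their first cysteines, bind CXCR2 (CXCL8 also CXCR1) and attract neutrophils, and NF-kB is the best known inducer of their genes. CXCL10 and CXCL11 are classical interferon-inducible genes whose products bind CXCR3 on activated T cells and NK cells, and CCL5 is induced by interferon regulatory factors as well as by NF-kB. CXCL16 is made as a transmembrane protein that ADAM10 sheds, and its receptor is CXCR6. CCL26 (eotaxin-3) binds CCR3 on eosinophils, and IL-4 and IL-13 are its best known inducers through STAT6.

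These 10 chemokine transcripts were taken by gene symbol from the 63086 genes of a table of size-factor-normalised read counts and were compared across 4 lines of MIA PaCa-2, a cell line from a human pancreatic carcinoma. They were selected with results from these same libraries in view, so their levels and fold changes are given as descriptions, without a test. The WT line was not manipulated. The CRISPR Control line had a WT genotype with a silent point mutation. TIMP1 KO 1 and TIMP1 KO 2, each a knockout clone, carried an edit in exon 4 of TIMP1, which encodes an inhibitor of matrix metalloproteinases. All lines were grown in the same medium (RPMI 1640 with serum and antibiotics), and each line had 3 libraries named as biological replicates. The comparison asks how chemokine transcripts differ when TIMP1 is disrupted. Each genotype was represented by a single line or by 2 clones, so a difference between clones and an effect of the edit cannot be told apart. This holds for a gene that differs in both KO clones as for a gene that differs in only 1 of them. In such bulk RNA a change in every cell and a change in the share of cells that make the transcript cannot be told apart either.

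The libraries held 26908701 to 36093563 reads in genes. A normalised count is the read count divided by the size factor of its library, and a count of 0 allows up to 3 reads, which was 2.49 to 3.56 normalised counts per library. TIMP1 itself stood at 3837, 3290 and 3532 normalised counts in WT, at 2285, 2826 and 2959 in CRISPR Control, at 1562, 1624 and 1613 in KO 1 and at 1136, 1192 and 1155 in KO 2. Transcript levels do not report the protein that the edit disrupts. TIMP1 RNA was lowest in the KO lines, and limma gave log2 fold changes against WT of -1.15 for KO 1 and -1.61 for KO 2 (SE 0.09 each, adjusted p = 7.24e-09 and 2.60e-11). It was also lower in CRISPR Control than in WT (log2 fold change -0.41, SE 0.09, adjusted p = 0.000769). All 6 markers fixed for a carcinoma line (KRT8, KRT18, KRT19, EPCAM, CDH1 and VIM) were detected in every line, at levels that differed. CDH1 (E-cadherin) was at 1189 ± 56.6 for WT, 1424 ± 73.0 for CRISPR Control, 128 ± 28.1 for KO 1 and 84.9 ± 17.1 for KO 2 (SD, n = 3), and KRT8 was lowest in CRISPR Control. Of 6 fibroblast markers, COL1A1 was abundant throughout and higher in both KO lines. It stood at 11490 for WT, 8868 for CRISPR Control, 56612 for KO 1 and 33836 for KO 2. COL1A2 was at 8217 ± 338 in WT, but the edited control held 8.56 ± 2.72 and the KO lines 0. PDGFRA was at 23.6 for WT and higher, at 283, for KO 2, whereas KO 1 (8.41) and CRISPR Control (2.95) stood below WT. PDGFRB was at 14.0 for WT and higher in each edited line, at 53.7 for CRISPR Control, 32.7 for KO 1 and 48.2 for KO 2. LUM and DCN had at most 6 and 3 reads in a library. The part of these markers in the chemokine differences was not tested. Of 15987 genes with a mean of at least 10 normalised counts, 35.5% differed between KO 1 and WT, 55.0% between KO 2 and WT and 53.4% between CRISPR Control and WT at an adjusted p under 0.05.

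Upstream sequences of the genes were examined first, because the members are usually grouped by the factors that bind there. RefSeq starts (GRCh38.p14) were given for 8 of the 10 members, and CXCL16 and CCL5 were not among them. The 250 bases before the start were searched on both strands for an NF-kB motif (GGAATTTCC), an interferon-stimulated response element (GAAA followed, after any pair of bases, by GAAA again) and an AP-1 motif (TGANTCA). The windows of 6 genes that the results turn on are shown, written 5′ to 3′ along the strand of the gene, with motif matches in capitals. They lie on chromosome 4 at chr4:73869143-73869392 (CXCL1, + strand), chr4:73998678-73998927 (CXCL5, - strand), chr4:73740319-73740568 (CXCL8, + strand), chr4:76023498-76023747 (CXCL10, - strand) and chr4:76036071-76036320 (CXCL11, - strand), and on chromosome 7 at chr7:75789747-75789996 (CCL26, - strand).
CXCL1: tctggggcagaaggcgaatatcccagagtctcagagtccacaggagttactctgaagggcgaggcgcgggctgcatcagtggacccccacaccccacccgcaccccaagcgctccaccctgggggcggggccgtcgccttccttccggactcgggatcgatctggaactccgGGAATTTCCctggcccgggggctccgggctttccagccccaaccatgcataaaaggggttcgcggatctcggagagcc
CXCL5: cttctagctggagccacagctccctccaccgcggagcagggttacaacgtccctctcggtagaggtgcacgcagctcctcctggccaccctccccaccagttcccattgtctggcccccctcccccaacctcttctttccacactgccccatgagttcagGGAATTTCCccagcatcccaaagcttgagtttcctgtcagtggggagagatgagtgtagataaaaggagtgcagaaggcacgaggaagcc
CXCL8: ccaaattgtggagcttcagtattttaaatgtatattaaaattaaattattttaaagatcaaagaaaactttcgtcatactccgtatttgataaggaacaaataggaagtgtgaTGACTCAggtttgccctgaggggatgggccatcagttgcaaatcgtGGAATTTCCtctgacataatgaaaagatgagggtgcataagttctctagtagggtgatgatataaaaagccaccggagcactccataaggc
CXCL10: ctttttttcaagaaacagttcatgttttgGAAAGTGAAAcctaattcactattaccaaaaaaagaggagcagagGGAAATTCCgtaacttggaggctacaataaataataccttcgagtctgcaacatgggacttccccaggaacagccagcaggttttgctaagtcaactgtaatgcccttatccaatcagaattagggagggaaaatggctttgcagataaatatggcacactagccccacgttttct
CXCL11: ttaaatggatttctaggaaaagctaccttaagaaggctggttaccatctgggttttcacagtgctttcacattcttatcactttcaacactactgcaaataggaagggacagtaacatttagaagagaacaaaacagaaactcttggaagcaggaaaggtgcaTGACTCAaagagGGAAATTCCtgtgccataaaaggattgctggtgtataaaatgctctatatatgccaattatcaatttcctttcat
CCL26: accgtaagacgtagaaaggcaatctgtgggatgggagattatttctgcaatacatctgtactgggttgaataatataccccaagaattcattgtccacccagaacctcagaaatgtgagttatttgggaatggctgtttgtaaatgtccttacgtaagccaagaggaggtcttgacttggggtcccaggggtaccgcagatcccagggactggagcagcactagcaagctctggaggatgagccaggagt

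The NF-kB motif was present upstream of 7 of the 8 genes, and of 0.413% of the 35116 promoters searched. Promoters on chromosome 8 were left out of the search. The motif was searched as a single fixed sequence, so other NF-kB sites were not counted, in the members or in the other promoters. That sequence may have been chosen with known sites of these genes in view, so no enrichment is read from these shares. With the last base before the start counted as -1, the motif spanned -78 to -70 in CXCL1, -90 to -82 in CXCL5 and -91 to -83 in CXCL8. In CXCL10 (-176 to -168) and CXCL11 (-75 to -67) it stood on the opposite strand and reads GGAAATTCC as printed. CXCL2 and CXCL3, whose sequences are not shown, held it at -77 to -69 and -78 to -70. The response element was found upstream of CXCL10 alone (-221 to -212), against 3.02% of the promoters searched. The AP-1 motif was found in CXCL8 (-137 to -131) and CXCL11 (-87 to -81), against 6.57% of the promoters searched. No match was found in the window of CCL26, and no motif of STAT6 was searched. The gene spans given below come from another annotation, in which some genes begin before the RefSeq start. The window of CXCL11 and parts of those of CXCL8 and CCL26 lie inside these spans. In that annotation part of the CXCL3 window, with its match, and the last base of the CXCL2 window also lie inside their genes. The matches are descriptions of sequence and not evidence that a factor was bound.

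The neutrophil-attracting chemokines CXCL1 and CXCL5 were the most abundant of their group in WT and were lower in every edited line, CRISPR Control included. CXCL8 differed from this pattern. It was at the WT level in CRISPR Control, lower in KO 1 and higher in KO 2. CXCL2 and CXCL3 were near the floor of detection throughout.

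CXCL1 (ENSG00000163739.5, 4:73869393-73871308, + strand) encodes the neutrophil attractant also known as GRO-alpha. Its normalised counts were 503, 605 and 536 for WT, 175, 246 and 192 for CRISPR Control, 82.1, 104 and 104 for KO 1 and 175, 177 and 133 for KO 2. The WT libraries lay above all others, and the libraries of KO 2 and CRISPR Control overlapped. Mean counts were 548 ± 52.5 for WT, 204 ± 36.6 for CRISPR Control, 96.6 ± 12.6 for KO 1 and 162 ± 24.7 for KO 2 (SD, n = 3). Relative to WT, the log2 fold change was -1.43 for CRISPR Control, -2.50 for KO 1 and -1.76 for KO 2 (SE 0.15 each). Relative to CRISPR Control it was -1.07 in KO 1 and -0.33 in KO 2 (SE 0.15 each), and KO 2 stood 1.67-fold above KO 1. Much of the distance between WT and the KO lines was thus also present between WT and the edited control.

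CXCL5 (4:73995642-73998677, - strand) encodes a neutrophil attractant of epithelial cells, and it showed the widest range of the group. Its normalised counts were 187, 369 and 289 in WT, and 21.6, 15.4 and 3.297 in CRISPR Control. In KO 1 a single read was counted over the 3 libraries, and in KO 2 the libraries held 3, 4 and 0 reads. WT was above every other library, and the lowest CRISPR Control library overlapped with KO 2. In recovered reads, summed over the libraries and scaled by their size factors, WT held 20.46 times as much as CRISPR Control (95% exact interval 14.95 to 28.7), 137 times as much as KO 2 (66.4 to 343) and 849 times as much as KO 1 (152 to 33570). The exact intervals, here and below, cover counting error only and leave out the spread between libraries. PCR copies of a molecule are counted as separate reads, so even the counting error may be understated. The log2 fold changes against WT were -4.54 for CRISPR Control, -7.74 for KO 1 and -6.76 for KO 2 (SE 0.62 each), on a log2(count + 1) scale that understates changes this deep. Without replicate 3 the CRISPR Control value was -3.82, and without replicate 3 of KO 2 the KO 2 value was -6.10.

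CXCL8 (interleukin-8, 4:73740519-73743716, + strand), the archetypal neutrophil chemokine, stood at 39.6, 92.7 and 62.9 in WT and at 59.6, 68.8 and 57.1 in CRISPR Control. It stood at 27.0, 31.5 and 33.6 in KO 1 and at 186, 135 and 174 in KO 2. Every KO 1 library was below, and every KO 2 library above, all 6 libraries of WT and CRISPR Control, which overlapped each other. The means were 65.1 ± 26.6 for WT, 61.8 ± 6.14 for CRISPR Control, 30.7 ± 3.35 for KO 1 and 165 ± 26.7 for KO 2 (SD, n = 3). Against WT the log2 fold change was -0.98 in KO 1, 1.398 in KO 2 and 0.01 in CRISPR Control (SE 0.24 each). The knockout clones therefore stood on opposite sides of WT for this gene and differed from each other 5.38-fold. Averaged over the clones, the log2 fold change against WT and CRISPR Control together was 0.20 (SE 0.17), a mean that describes neither clone.

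CXCL2 and CXCL3, close relatives of CXCL1 that attract neutrophils, were counted as reads because both fell below the mean of 10. CXCL2 had 4, 17 and 6 reads for WT, 2, 2 and 0 for CRISPR Control, 0, 0 and 1 for KO 1 and 2, 6 and 4 for KO 2. CXCL3 had 12, 21 and 6 reads for WT, 0, 0 and 1 for CRISPR Control, 2, 0 and 2 for KO 1 and 23, 5 and 6 for KO 2. For both genes the WT libraries lay above those of CRISPR Control and KO 1 and overlapped those of KO 2. The ratio of KO 2 to WT was 0.404 for CXCL2 (95% exact interval 0.186 to 0.824) and 0.792 for CXCL3 (0.485 to 1.29). CXCL3 was thus 7.501 times higher in KO 2 than in KO 1 (2.68 to 29.1), while CXCL5, its neighbour on the chromosome, had 7 reads against 1. Transcripts of CXCL2 and CXCL3 share 7.35% of the 75-base windows of CXCL2, so a few of their reads could be assigned to either gene. CXCL1 shares 0.233% of its windows with CXCL2.

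**Figure D1:**
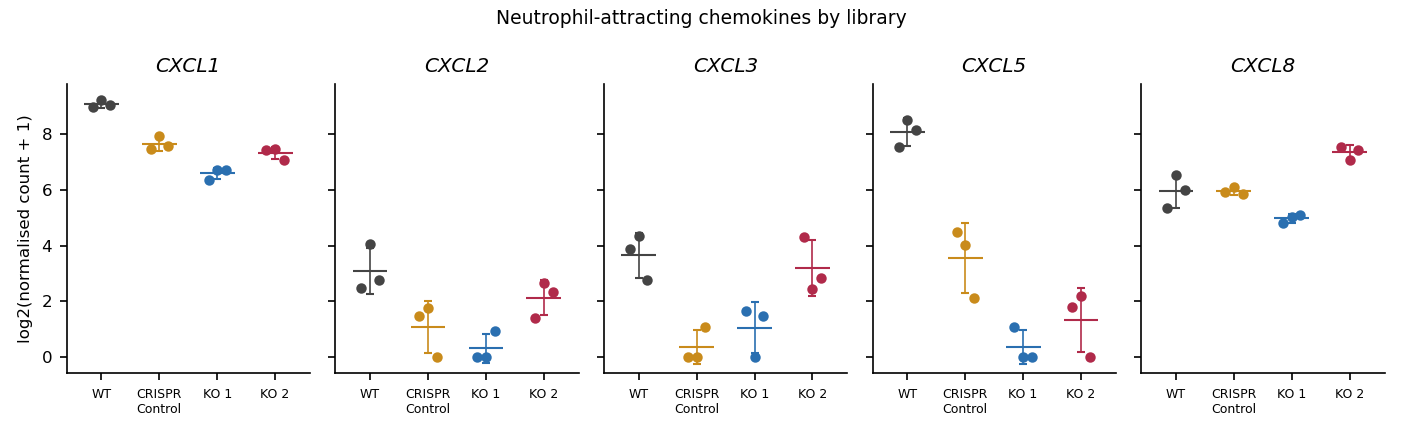
Level of the 5 neutrophil-attracting chemokines in each library, as log2(normalised count + 1) on the vertical axis. Points are libraries, long bars are means of 3 libraries and whiskers are SD. CXCL1 and CXCL5 are highest in WT, CXCL8 is lowest in KO 1 and highest in KO 2, and CXCL2 and CXCL3 lie near 0 in several lines.

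The interferon-inducible chemokines were all highest in KO 2. CCL5 was also above WT and CRISPR Control in KO 1, whereas CXCL10 had no read and CXCL11 3 reads in KO 1.

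CCL5 (RANTES, 17:35871491-35880793, - strand) attracts T cells, NK cells and monocytes. Its normalised counts were 5.66, 2.73 and 15.2 for WT, 3.45, 4.74 and 2.20 for CRISPR Control, 22.7, 29.3 and 17.7 for KO 1 and 200.5, 164 and 158 for KO 2. The 6 KO libraries lay above the 6 others, and KO 2 lay apart from KO 1. Against WT the log2 fold change was 1.68 in KO 1, 4.56 in KO 2 and -0.77 in CRISPR Control (SE 0.42 each). In summed reads KO 2 held 22.2 times as much as WT (95% exact interval 14.8 to 34.9) and KO 1 held 2.87 times as much (1.78 to 4.79). A WT library with 15.2 sets the margin to KO 1, whose lowest library held 17.7.

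CXCL10 (IP-10, 4:76021118-76023497, - strand) attracts activated T cells. It had no read in WT or KO 1 and 2 reads in a single CRISPR Control library, against 10, 8 and 6 reads in KO 2. At a mean of 7.12 ± 1.12 normalised counts (SD, n = 3), KO 2 was at least 2.38-fold higher than WT and at least 2.30-fold higher than KO 1, each line at 0 being set to the floor of 3 reads per library. CXCL11 (I-TAC, 4:76033682-76041415, - strand), which binds the same receptor, had no read for WT, 1 for CRISPR Control, 3 for KO 1 and 14, 7 and 7 for KO 2. KO 2 was at least 2.76-fold higher than WT and held 8.24 times KO 1 (95% exact interval 2.54 to 42.3). CXCL9, the third ligand of that receptor, was at 0 in all 12 libraries.

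CXCL16 and CCL26 belong to neither group. CXCL16 (17:4733533-4739928, - strand) stood at 286, 264 and 253 in WT, 232, 300.1 and 291 in CRISPR Control and 328, 297 and 259.7 in KO 1, which all overlapped. It stood at 418, 423 and 476 in KO 2, above all other libraries. Its log2 fold change against WT was 0.71 in KO 2, 0.13 in KO 1 and 0.03 in CRISPR Control (SE 0.12 each). This was the narrowest range of any member, since the line means spanned 268 to 439. The gene overlaps MED11 on the opposite strand, and the strand setting of the counting was not given, so reads in the overlap cannot be told apart. MED11 itself had a log2 fold change of -0.09 (SE 0.11, adjusted p = 0.497 in limma) in KO 2 against WT.

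CCL26 (7:75769533-75789896, - strand) was near the floor in WT and CRISPR Control and well above it in both KO lines. It had 0, 5.45 and 2.86 normalised counts in WT and 0, 1.19 and 5.49 in CRISPR Control, against 43.2, 50.6 and 45.9 in KO 1 and 116, 129.8 and 122 in KO 2. No library of one line overlapped with another except between WT and CRISPR Control. In summed reads KO 1 held 15.7 times as much as WT (95% exact interval 8.02 to 35.0), KO 2 held 41.3 times as much (21.5 to 90.9), and KO 2 held 2.63 times as much as KO 1 (2.17 to 3.22). The log2 fold changes against WT were 4.02 in KO 1 and 5.40 in KO 2 (SE 0.61 each). They were 3.25 and 4.63 without replicate 1 of WT, the library with no read. CRISPR Control stood at -0.27 (SE 0.61) against WT.

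**Figure D2:**
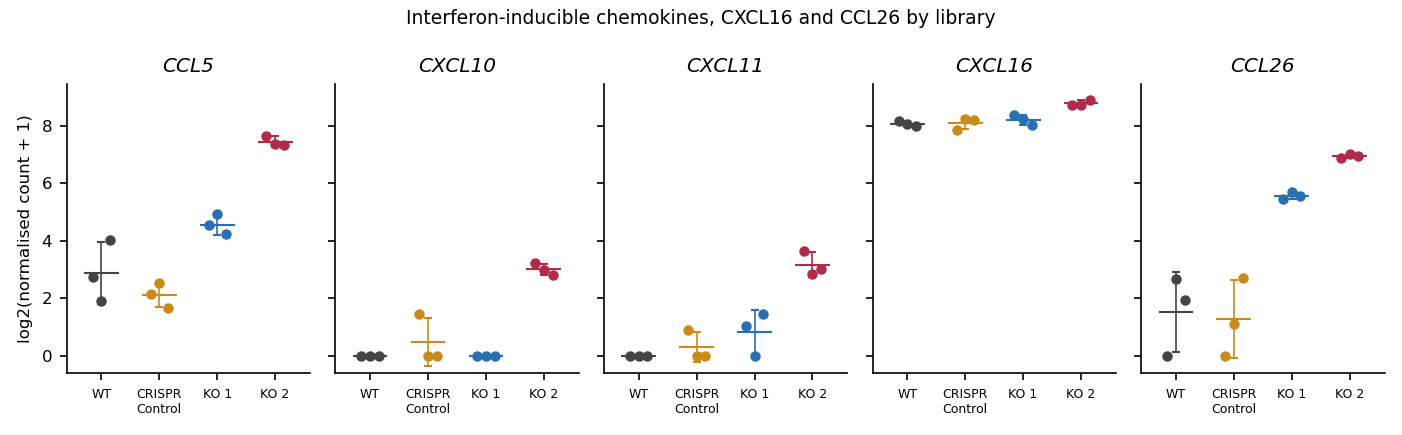
Level of CCL5, CXCL10, CXCL11, CXCL16 and CCL26 in each library, as log2(normalised count + 1) on the vertical axis. Points are libraries, long bars are means of 3 libraries and whiskers are SD. All 5 genes are highest in KO 2, and CCL5 and CCL26 are also above WT and CRISPR Control in KO 1.

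Levels of different genes can be compared only per length. Per kilobase of exon, WT held 402 normalised counts of CXCL1, 116 of CXCL5, 95.9 of CXCL16 and 25.1 of CXCL8, and under 7 of each other member. The order in KO 2 was CCL26 with 174, CXCL16 with 157, CCL5 with 128, CXCL1 with 119 and CXCL8 with 63.7, all per kilobase. KO 1 had CXCL16 first with 106, then CXCL1 with 70.9 and CCL26 with 66.3. Some neighbours in these orders overlapped library by library: CXCL5 with CXCL16 in WT, CCL26 with CXCL16 and CCL5 with CXCL1 in KO 2, and CXCL1 with CCL26 and CCL5 with CXCL8 in KO 1.

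Of the 10 members, 6 passed the mean of 10 (CXCL1, CXCL5, CXCL8, CCL5, CXCL16 and CCL26), and the other 4 entered no fit across genes. Those 6 had an adjusted p under 0.05 in 5 cases for KO 1 against WT, in 6 for KO 2 and in 2 (CXCL1 and CXCL5) for CRISPR Control, beside the 35.5%, 55.0% and 53.4% of all genes given above. KO 1 and KO 2 against CRISPR Control gave 5 each, beside 63.0% and 67.7% of all genes, and KO 2 against KO 1 gave 4 beside 38.2%. The mean of the KO lines against that of WT and CRISPR Control gave 5 beside 65.9%. These contrasts are those the members were chosen on, and nothing is read from the counts. CXCL5, at 281 in WT and at most 13.4 in the other lines, also passed the minimum through WT alone. The 6 KO libraries did not overlap with the 6 others for CCL5 and CCL26 alone, beside 24.7% of all genes.

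**Figure D3:**
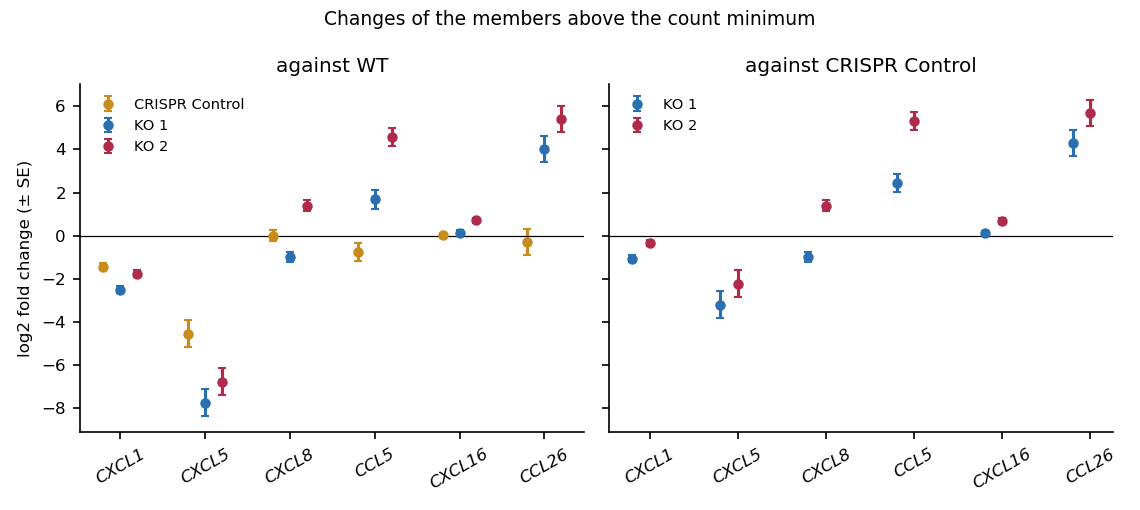
Log2 fold change of the 6 members above the count minimum, against WT on the left and against CRISPR Control on the right, with standard errors from the limma fit. CXCL1 and CXCL5 lie below 0 in all edited lines, CXCL8 lies on opposite sides of 0 in KO 1 and KO 2, and CCL5 and CCL26 lie above 0 in both KO lines.

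The 7 CXC genes other than CXCL16 lie in a stretch of 2301 kb on chromosome 4 from CXCL8 to CXCL11, which holds 28 protein-coding genes. Besides the members, 13 of these were tested. Against WT, 4 rose and 4 fell for KO 1, 7 rose and 4 fell for KO 2, and 1 rose and 4 fell for CRISPR Control. Over all genes, 35.5%, 55.0% and 53.4% passed the threshold in either direction. BTC, at 64.8 in WT and at most 10.9 in the other lines, passed the minimum through WT and gives no test. It is nevertheless among the falls counted for each of the 3 lines. Among the 13 were also the growth factor genes EREG and AREG, ligands of the EGF receptor. EREG fell from 256 ± 54.0 in WT to no read in KO 1, which is at least 82.9-fold lower, and to 9.33 ± 4.86 in KO 2, but rose to 708 ± 59.8 in CRISPR Control (SD, n = 3 each). PARM1, farther along, stood at 43.4 ± 7.76 for WT and rose to 156 ± 35.4 for KO 1 and 1975 ± 92.0 for KO 2, while it fell to 5.61 ± 2.11 for CRISPR Control. Directions along the stretch were therefore mixed, within and between lines. These genes are named by their position, after their values had been seen.

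Other chemokine ligands were taken from a list of 38 names, of which 36 had a row, 17 were at 0 in all libraries and 5 were tested. Their being left out of the members may have rested on these data too, so the counts are not independent. Against WT, 3 rose and 1 fell in KO 1, 3 rose and 1 fell in KO 2, and 1 rose and 3 fell in CRISPR Control (limma, adjusted over all genes). The median log2 fold change was 0.44, 0.60 and -0.31, beside 0.00, -0.01 and 0.01 over all genes. The share of all genes past the threshold was 35.5%, 55.0% and 53.4%. CCL2, which attracts monocytes, stood at 1885 ± 162 for WT, 1525 ± 163 for CRISPR Control, 3465 ± 238 for KO 1 and 6553 ± 789 for KO 2 (SD, n = 3 each). It rose by 0.88 in KO 1 and 1.79 in KO 2 (log2, SE 0.10, adjusted p = 9.05e-07 and 2.09e-11 in limma), and no KO library overlapped with the others. CX3CL1 (fractalkine), a membrane-bound attractant of NK cells and T cells, stood at 3968 ± 209 for WT, 139 ± 21.9 for CRISPR Control, 12980 ± 379 for KO 1 and 9101 ± 170 for KO 2. It rose by 1.71 in KO 1 and 1.20 in KO 2 and changed by -4.84 in CRISPR Control (log2, SE 0.09, adjusted p = 3.32e-11, 2.19e-09 and 2.51e-18 in limma).

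CXCL6, a further ligand of CXCR1 and CXCR2 beside CXCL8 on the chromosome, was at 36.0 ± 8.26 for WT, 11.1 ± 7.40 for CRISPR Control, 14.8 ± 12.5 for KO 1 and 8.39 ± 1.13 for KO 2 (SD, n = 3). It fell in each edited line, by 1.79, 1.49 and 1.96 on the log2 scale (SE 0.50 each, limma adjusted p = 0.00564, 0.0264 and 0.00281). CCL28, an epithelial chemokine, rose by 0.44 in KO 1 and 0.60 in KO 2 (SE 0.16, adjusted p = 0.0344 and 0.00318) and had 0.04 in CRISPR Control. The KO 1 calls of both genes were lost without WT replicate 1, WT replicate 2, KO 1 replicate 2 or KO 1 replicate 3, and that of CCL28 also without KO 1 replicate 1. Both were lost with no minimum on the mean as well. Over the left-out libraries the values ran from -2.10 to -1.07 for CXCL6 and from 0.31 to 0.60 for CCL28. CXCL14 was at 38.2 ± 13.3 in CRISPR Control and at 2.59 ± 2.71 in WT, with no read in KO 1. It passed the minimum through CRISPR Control alone and so gives no test, although it is the 1 rise counted for that line above.

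**Figure D4:**
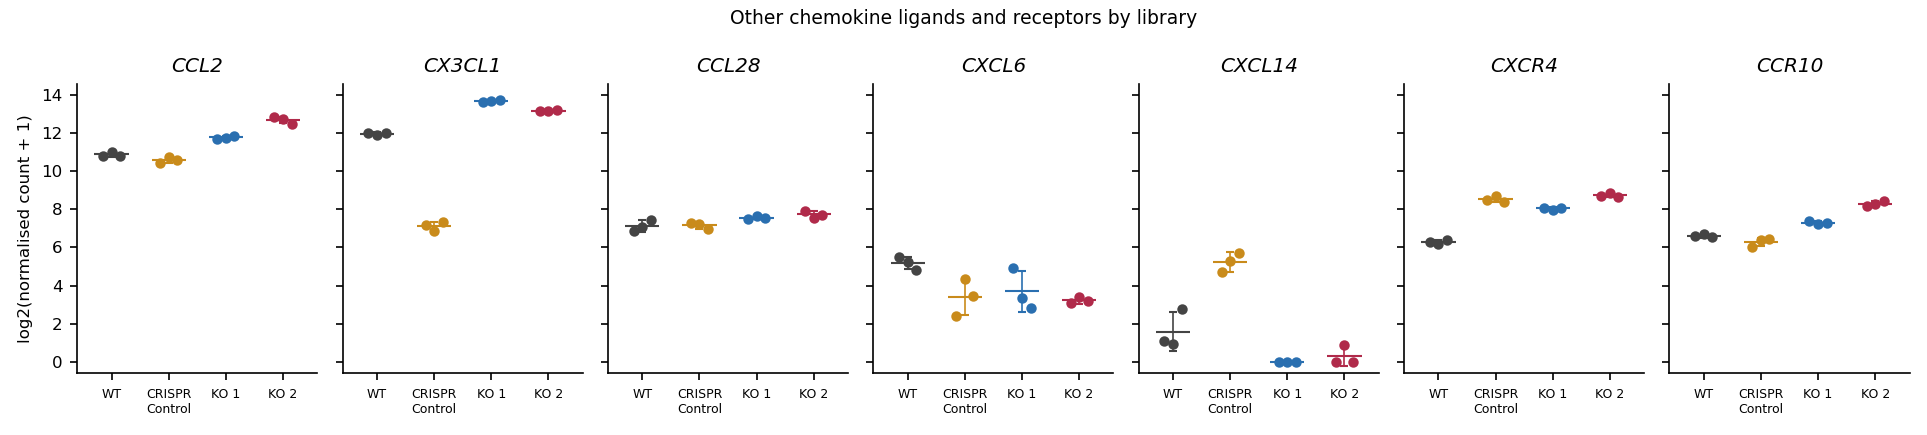
Level of the tested other chemokine ligands and of the receptors CXCR4 and CCR10 in each library, as log2(normalised count + 1) on the vertical axis, with means and SD of 3 libraries. CCL2 is higher in both KO lines than in WT and CRISPR Control, CX3CL1 is lowest in CRISPR Control, and CXCR4 is lowest in WT.

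Receptors for the members were barely transcribed. Of 23 chemokine receptor genes 2 were tested, and CXCR1, CCR1 and CCR3 had no read in any library. CXCR2 held at most 3 reads in a library and CXCR3 at most 2. CXCR6, the receptor of CXCL16, held at most 11. The tested receptors bind other ligands. CXCR4, the receptor of CXCL12, stood at 76.9 ± 6.91 for WT, 367 ± 38.2 for CRISPR Control, 262 ± 9.36 for KO 1 and 423 ± 30.7 for KO 2 (SD, n = 3), and rose by 2.24, 1.76 and 2.45 on the log2 scale (SE 0.12, limma adjusted p = 1.45e-11, 1.21e-09 and 4.60e-12). CCR10, a receptor of CCL28, rose by 0.68 in KO 1 and 1.69 in KO 2 (SE 0.14, limma adjusted p = 0.00108 and 1.20e-08), with -0.33 in CRISPR Control (adjusted p = 0.0616).

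Regulators of the neutrophil-attracting genes were taken from a list of NF-kB and AP-1 genes, 29 of which were tested. Against WT, 10 rose and 4 fell in KO 1, 17 rose and 3 fell in KO 2, and 6 rose and 11 fell in CRISPR Control. Median log2 fold changes were 0.08, 0.49 and -0.18. Over all genes, 35.5%, 55.0% and 53.4% passed the threshold in either direction. TNFAIP3, an NF-kB target that restrains the pathway, stood at 369 ± 17.0 for WT, 639 ± 32.0 for KO 1 and 826 ± 13.2 for KO 2 (SD, n = 3), and rose by 0.79 and 1.16 (SE 0.10, limma adjusted p = 4.55e-06 and 1.21e-08). The AP-1 genes FOSB and FOS rose in KO 2 by 1.80 (SE 0.16) and 1.19 (SE 0.28) and fell in CRISPR Control by 2.06 and 1.46. FOSL1, another AP-1 gene, fell in both KO lines, by 0.57 and 0.73 (SE 0.09). IL1R1, the receptor of interleukin-1, fell by 1.16 in KO 1 and 0.72 in KO 2 (SE 0.12), and CHUK, an IkB kinase gene, fell by 0.27 in KO 2 (SE 0.07). CHUK had -0.20 in KO 1 (limma adjusted p = 0.0285), a call lost with no minimum and without any single KO 1 library or WT replicate 2 or 3 (-0.21 to -0.16).

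Interferon genes and their signalling genes, 30 of which were tested, gave 14 rises and 2 falls in KO 1, 21 and 2 in KO 2, and 10 and 11 in CRISPR Control. Median log2 fold changes were 0.42, 0.97 and 0.06, or 0.35, 0.97 and 0.00 when IFNL3, which has no read in WT, is set to its bound. Over all genes, 35.5%, 55.0% and 53.4% passed the threshold in either direction. IFNL1, IFNL2, IFNL3 and TLR3 passed the minimum through KO 2 alone. Their changes in KO 2 thus give no test, although they enter the counts and medians. The rise of the list in the KO lines was known from these libraries and is not independent evidence. The type III interferon genes IFNL2 and IFNL3 are near-identical copies whose reads may be split between them, and IFNL1 is a more distant relative. In KO 2, IFNL1 stood at 138 ± 20.03 and IFNL2 at 88.0 ± 12.1, and IFNL3 had 320 reads. In KO 1, IFNL1, IFNL2 and IFNL3 stood at 9.42 ± 5.92, 1.76 ± 0.76 and 3.66 ± 1.22. In CRISPR Control they stood at 3.03 ± 3.54, 3.45 ± 5.25 and 2.55 ± 3.05, and each was under 1 normalised count in WT (SD, n = 3). Against WT, the KO 2 level of IFNL3 was at least 31.7-fold higher. IRF8, an interferon regulatory factor, fell in KO 1 by 1.46 and rose in KO 2 by 1.24 (SE 0.37, limma adjusted p = 0.00429 and 0.00781). The DNA sensor gene CGAS and the kinase gene JAK1 fell in KO 2, by 0.49 (SE 0.10) and 0.29 (SE 0.07).

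For CCL26, the receptor genes IL4R and IL13RA1 and the transcription factor gene STAT6 were tested. STAT6 rose by 0.65 in KO 1 and 0.64 in KO 2 and fell by 1.81 in CRISPR Control (SE 0.07, limma adjusted p = 5.88e-07, 2.72e-07 and 1.09e-13), from 3150 ± 185 in WT to 4934 ± 149, 4917 ± 152 and 899 ± 44.7 (SD, n = 3). IL4R rose by 0.52 in KO 2 (SE 0.08, adjusted p = 3.28e-05), and IL13RA1 rose by 0.30 in KO 1 (SE 0.06, limma adjusted p = 0.00128). IL13RA1 had 0.17 in KO 2 (limma adjusted p = 0.0347), a call lost with no minimum and without WT replicate 1 or 3 or KO 2 replicate 1 or 2 (0.13 to 0.18).

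Genes that cleave, shed or hold chemokines at the cell surface were also compared, because TIMP1 inhibits metalloproteinases, some of which cut chemokines. All 18 listed genes were tested. Against WT, 8 rose and 4 fell in KO 1, 8 rose and 3 fell in KO 2, and 11 rose and 2 fell in CRISPR Control, with medians of 0.10, 0.13 and 0.56. Over all genes, 35.5%, 55.0% and 53.4% passed the threshold in either direction. The listed gene DPP4 passed the minimum through CRISPR Control alone and gives no test for that line, although it enters the counts and medians. MMP1, a collagenase, stood at 25.5 ± 2.72 for WT, 389 ± 46.8 for CRISPR Control, 5.17 ± 3.39 for KO 1 and 253 ± 21.4 for KO 2 (SD, n = 3), with log2 fold changes of 3.88, -2.25 and 3.26 (SE 0.28, limma adjusted p = 1.58e-09, 4.92e-06 and 1.63e-08). CTSS, a lysosomal protease, rose by 2.23 in KO 1, 3.80 in KO 2 and 0.92 in CRISPR Control (SE 0.20). MMP9, a gelatinase that trims CXCL8, rose by 2.58 in KO 2 and 1.74 in CRISPR Control (SE 0.32). In KO 1 it rose by 1.02 (limma adjusted p = 0.0175), a call lost with no minimum, without WT replicate 1 (0.86) and without KO 1 replicate 1 (0.85). Genes of heparan sulfate carriers moved both ways. SDC1 and GPC1, whose products carry the heparan sulfate that binds chemokines, fell in KO 2 by 1.23 (SE 0.07) and 0.64 (SE 0.10), and NDST1, an enzyme of heparan sulfate synthesis, fell by 0.29 (SE 0.09), a call that was lost with equal library totals (-0.19). SDC4, a further carrier gene named after its values were seen, rose in KO 2 by 1.11 (SE 0.07, limma adjusted p = 3.50e-10), and SDC3 had 0.23 there (adjusted p = 0.0310). ADAM10, the sheddase of CXCL16, was chosen after its values were seen and had 0.23 in KO 1 and 0.08 in KO 2 (SE 0.08, adjusted p = 0.0278 and 0.372).

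Leukocyte markers, fixed as a list of 10 genes, were summed. The sum was 52.1 to 68.6 normalised counts in WT, 61.3 to 68.8 in CRISPR Control, 113 to 132 in KO 1 and 242 to 294 in KO 2, and it moved with CCL5. Most of it came from CD14 and ITGAM. PTPRC, which all leukocytes express, had at most 9 reads in any library, and CD3E and NKG7 at most 2 and 3. CSF1R had 3 reads for WT, 34 for CRISPR Control, 4 for KO 1 and 21 for KO 2. MS4A1, FCGR3B and S100A12 were at 0 in every library. The part of these genes in the CCL5 difference was not tested.

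CXCL8 and CXCL10 were searched for genes with a like pattern over the 4 lines, by the root mean square difference of log2 line means after each gene was centred on its own mean. Among genes with a mean of at least 100, the nearest to CXCL8 were CSGALNACT1 (0.178), GRIP2 (0.182) and ALOXE3 (0.274). CSGALNACT1, a chondroitin sulfate synthase, stood at 455 ± 47.2 for WT, 420 ± 38.5 for CRISPR Control, 256 ± 9.02 for KO 1 and 954 ± 43.7 for KO 2 (SD, n = 3). The nearest to CXCL10, whose own pattern rests on 26 reads, were CYGB (0.263), ARHGAP42 (0.280) and MYH15 (0.308). Likeness over 4 line means describes these lines only.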

How the data were processed

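RNA of 12 MIA PaCa-2 libraries (4 lines, 3 biological replicates each, groups and replicate numbers from the sample titles) was sequenced in pairs. The authors trimmed reads with Cutadapt, mapped them to GRCh38 with STAR, counted them with featureCounts and divided the counts by DESeq2 size factors. The strand setting and annotation release are not given in the sources used here. The deposited values are thus a signal of scaled counts, and the scaling removes a shift common to most genes. The 4 columns of line means and 1 blank line were not used.

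Values were whole multiples of a step in every library, so reads were recovered (100% whole within 0.01 reads), which gave the depths of 26908701 to 36093563 reads and the floor of 3 reads. Replicates of a line differed by more than counting noise (chi-square per gene 4.68 to 31.0), so none was a library deposited again. The titles call them biological replicates without naming separate cultures, and p-values measure the spread between these libraries.

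The main test was limma 3.58.1 (R 4.3.3, trended eBayes, two-sided) on log2(normalised count + 1) of the 15987 genes with a mean of at least 10 (99.9% of reads), with Benjamini-Hochberg adjustment over all of them at 0.05. It used 1 mean per line from all 12 libraries. The test was checked on simulated data. The deposited values are not counts, so edgeR 4.0.16 and DESeq2 1.42.0 on the recovered reads were alternatives, as were other pseudocounts, minimums, scalings and left-out libraries. The count ratios of low genes have exact 95% intervals.

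The members and lists were chosen with earlier results of these data known, and no test is given for the members. The 10 members, TIMP1, every tested ligand and receptor, and from each other list the 3 genes past the threshold with the highest and the 3 with the lowest change in KO 2 and the extremes in KO 1 were named. Coordinates are of GRCh38 (GENCODE annotation, which 99.1% of gene identifiers matched without version), and upstream sequences are RefSeq (GRCh38.p14).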

Additional observations from a re-analysis of the deposited data

Results flagged for a closer look

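CXCL8 is flagged because every library of KO 1 lay below, and every library of KO 2 above, all libraries of WT. Its mean was 5.38-fold higher in KO 2 than in KO 1 (165 ± 26.7 and 30.7 ± 3.35 normalised counts, SD, n = 3). CXCL8 was among the genes chosen with these results in view, and this difference between the clones was not tested.

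IRF8 and MMP1 are flagged because their changes against WT passed the threshold in opposite directions in the 2 clones. The difference between the clones follows from that choice and is given without a test. For IRF8 the log2 difference of KO 2 minus KO 1 was 2.703 (SE 0.37), with KO 1 at 6.28 ± 2.83 and KO 2 at 44.01 ± 6.80 normalised counts. For MMP1 it was 5.51 (SE 0.28). IRF8 was higher in 3 of 3 KO 2 libraries than in any KO 1 library, and so was MMP1.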

How the results depend on the processing

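No alternative turned the sign of a member's fold change that had passed the threshold. With no minimum on the mean, which lets the low members in, 4 members passed for CRISPR Control against WT, 8 for KO 2 against CRISPR Control and 7 for KO 2 against KO 1. Under that setting, 4 receptors passed in KO 2 and 2 in CRISPR Control, and 8 and 7 other ligands. With a mean of at least 50, 2 other ligands passed in CRISPR Control. TMM factors or equal library totals gave 2 receptors in CRISPR Control, as CCR10 then passed. Leaving out a library gave 1 to 2 receptors in CRISPR Control (2 without CRISPR Control replicate 3) and 2 to 4 other ligands in KO 1 (2 without WT replicate 1, KO 1 replicate 2 or KO 1 replicate 3). Left-out libraries turned the sign of uncalled values near 0, with log2 ranges of -0.093 to 0.19 for CCL28 and -0.079 to 0.11 for NDST1 in CRISPR Control, of -0.18 to 1.51 for IFNL2 there, and of -0.19 to 0.020 for CGAS and -0.095 to 0.35 for FOS in KO 1. Where the setting's own construction does not show why, the cause was not tested.

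A pseudocount of 10 lowered the log2 fold changes of low genes, to -4.77 for CXCL5 and 2.17 for CCL26 in KO 1 against WT, while edgeR gave -9.26 for CXCL5. Equal library totals moved the share of higher calls from 49.3% to 59.9% in KO 2 against WT and from 47.4% to 65.5% in KO 2 against KO 1, and the median of all genes by 0.11 (log2) between KO 2 and CRISPR Control. Replicate numbers did not pair the libraries, since deviations of same-numbered libraries correlated between -0.13 and 0.16 and 2 of 18 pairs exceeded 0.1. With a replicate block, 5602 genes passed for KO 1 and 8714 for KO 2 against WT, and members passing were 6 for KO 2 against CRISPR Control and 5 for KO 2 against KO 1. A fit of the compared lines alone is the same fit for both KO lines against WT and CRISPR Control and gave no value of its own. Members with under 40 reads per line (CXCL2, CXCL3, CXCL10 and CXCL11) are limited by counting.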

Other observations

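Several chemokine genes and a decoy receptor below the minimum differed in reads between the lines. They are named after their values were seen, with no test. CCL24 (eotaxin-2), which neighbours CCL26 and attracts eosinophils through the same receptor, held 1 read for WT, 3 for CRISPR Control, 23 for KO 1 and 61 for KO 2. KO 2 held 2.34 times the CCL24 of KO 1 (95% exact interval 1.43 to 3.96), and 16 of the 23 reads of KO 1 came from replicate 3. CCL20, the ligand of CCR6, had no read for WT, 17 for CRISPR Control, 4 for KO 1 and 64 for KO 2, so that KO 2 was at least 6.36-fold above WT.

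ACKR3, a scavenger receptor that removes CXCL11 and CXCL12, had 13, 8 and 20 reads in WT and 5, 2 and 2 in CRISPR Control. It had no read in any KO library, so KO 1 was at least 4.43-fold and KO 2 at least 5.04-fold lower than WT. IFNB1, the interferon-beta gene, had no read in WT or CRISPR Control, 1 in KO 1 and 15, 20 and 6 in KO 2.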
